A study of Mus musculus with 8 samples.

Results

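The Slc25a genes encode the mitochondrial carriers, a family of membrane transporters. They were taken as every row of the deposited count table whose gene name begins with Slc25a and a number. This gave 41 rows of the 17167 listed genes, 40 of them protein-coding and the other the processed pseudogene *Slc25a5-ps*. Of these rows, 37 had enough counts for testing.

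The cells were cultures of undifferentiated spermatogonia, the germ cell population that includes the spermatogonial stem cells, established from adult testes of wild-type mice and kept on growth-arrested embryonic fibroblasts as feeders. Each of 4 cultures from separate mice gave 1 library treated with vehicle (DMSO) and 1 treated with AGX51 for 20 h, so that 8 libraries were compared. AGX51 is a small molecule that disrupts binding of the ID proteins to their E-protein partners. The study's methods and the series text give its dose as 80 µM, whereas the sample labels give 80 mM. The labels give the strain as CBA/J, and the supplemental methods describe wild-type mice as C57BL/6J. Before treatment, cells were depleted of feeders by attachment to plastic and plated on a basement membrane matrix. No further removal of feeder cells is described in the sources used here.

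Mitochondrial carriers move metabolites across the inner mitochondrial membrane, which is otherwise closed to most charged solutes. They exchange ADP for ATP, import phosphate, and carry citrate, malate, aspartate, glutamate and other amino acids, cofactors and iron between mitochondrion and cytosol. A few members act elsewhere, such as *Slc25a17* in peroxisomes and *Slc25a46* in the outer mitochondrial membrane. The germline is known for an ADP/ATP carrier of its own, *Slc25a31*, which takes over from the X-linked *Slc25a5* in meiotic cells.

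The libraries held 8330176 to 9586105 counts with vehicle and 4303318 to 8441399 with AGX51. A set of 14 genes was used as markers of undifferentiated spermatogonia. Not all are specific to them, since *Kit* is placed by the study in differentiating cells and *Ddx4* marks germ cells in general. All 14 were listed, with a summed level of 1586 to 1937 CPM in vehicle and 930 to 1206 CPM in AGX51 libraries. Of 13 of these tested, 4 were called lower and 0 higher (7 lower and 0 higher at an unadjusted p under 0.05). The most abundant, *Dazl*, averaged 813 CPM with vehicle and 348 CPM with AGX51 and was called lower, as were *Gfra1*, *Etv5* and *Cdh1*. *Sall4*, *Ddx4*, *Foxo1* and *Ret* were among 9 not called, with log2 fold changes of -0.15, -0.18, -0.10 and -0.22. Also not called were *Zbtb16* (-0.49, adjusted p = 0.00389 from edgeR), *Id4* (-0.32, adjusted p = 0.0371 from edgeR), *Lin28a* (-0.25), *Stra8* (-0.30) and *Kit* (0.17). CPM here is the count scaled to library size after TMM normalisation. Feeder cells are fibroblasts, and all 22 fibroblast markers were listed, 8 of them called higher and 3 lower with AGX51, and their summed level was 4295 to 6907 CPM in vehicle and 5648 to 10870 CPM in AGX51 libraries. The mean log2 level of these markers was highest in culture 4 in both groups. The part of fibroblast RNA in the results below was not tested beyond a fit with the marker mean as a covariate, whose values are given where they change a call. In such bulk samples, fewer cells of a type and less RNA of its markers per cell cannot be told apart. Of 7 spermatocyte and spermatid markers 5 were listed, summing to 762 to 917 CPM with vehicle and 672 to 937 CPM with AGX51. Among these *Piwil1* and *Tnp1* were called lower (both -1.01 on the log2 scale), and *Sycp3* had 0.41 (adjusted p = 0.0243 from edgeR) and was not called. Of 6 Sertoli cell markers 3 were listed and 0 called (0 at an unadjusted p under 0.05), with sums of 30.4 to 43.5 CPM and 26.5 to 46.4 CPM. The macrophage marker *Cd68*, the sole listed one of 4, was called higher (11.5 to 17.2 CPM with vehicle and 21.7 to 30.6 CPM with AGX51), as was the Leydig cell marker *Star*, the sole listed one of 5 (2.51 to 3.39 CPM and 3.10 to 6.25 CPM). The part of these cell types in the results was not tested.

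The family as a whole took a similar share of the counts in both groups. The 41 rows together took 0.244% to 0.269% of all counts in vehicle and 0.244% to 0.278% in AGX51 libraries, so the groups overlapped. The phosphate carrier *Slc25a3* and the ADP/ATP carriers *Slc25a4* and *Slc25a5* made up 58.8% to 63.4% of the family's counts in vehicle libraries. Per kilobase of merged exon, *Slc25a5* had the highest vehicle level at 298 CPM per kb, followed by *Slc25a4* at 245, *Slc25a3* at 75.3, *Slc25a31* at 71.0 and the glutathione carrier *Slc25a39* at 63.4 CPM per kb. The lowest tested member by this measure was *Slc25a40* at 0.403 CPM per kb. Libraries were made by priming on poly(A), and how well exon length corrects such counts was not tested. *Slc25a21*, *Slc25a27*, *Slc25a47* and *Slc25a5-ps* had mean levels of 0.53 to 0.67 CPM in vehicle and were not tested.

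**Figure D1:**
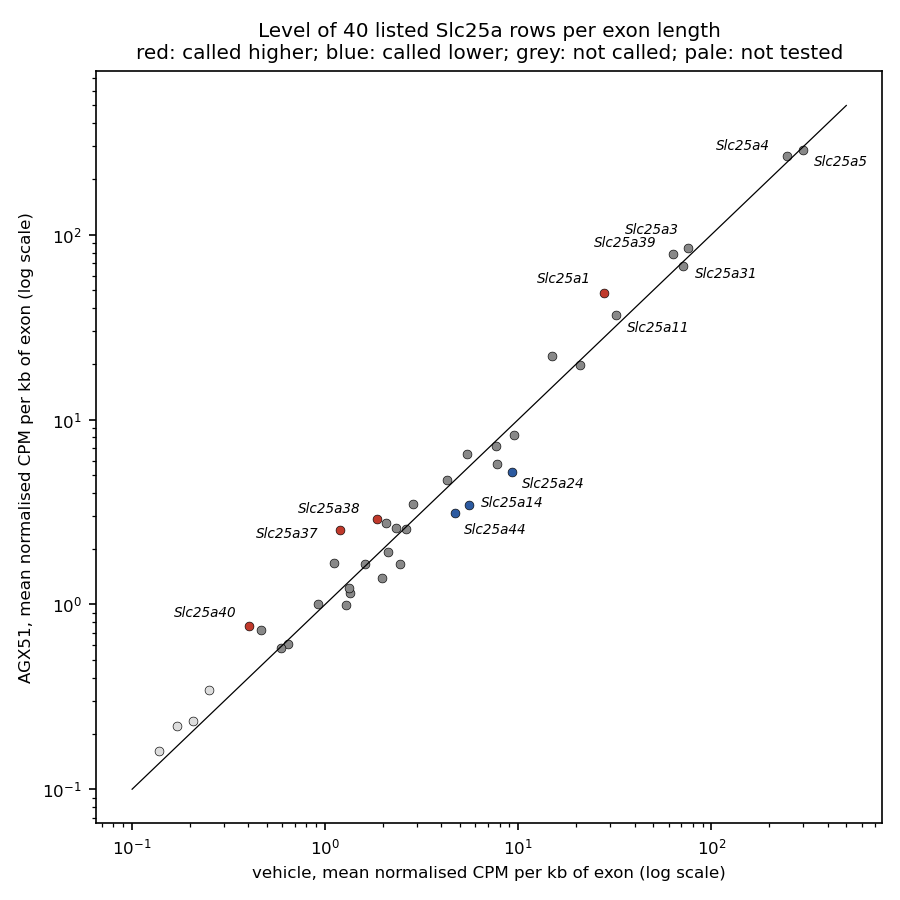
Mean level of 40 Slc25a rows with vehicle (horizontal) and with AGX51 (vertical), in normalised CPM per kb of merged exon on log axes. Each point is a gene and the line marks equal levels. The most abundant members lie near the line, with Slc25a5 at 298 and 288 and Slc25a4 at 245 and 266 CPM per kb, while Slc25a37 lies above it at 1.19 and 2.53.

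A minority of the carriers differed between the groups, in both directions. A gene was called when edgeR's quasi-likelihood test gave a Benjamini-Hochberg adjusted p under 0.05 over the 14428 tested genes and the fold change was above 1.5, the study's thresholds. Of the 37 tested members, 5 were called higher (among them *Slc25a1*, *Slc25a37*, *Slc25a38* and *Slc25a40*), 3 lower (*Slc25a14*, *Slc25a24* and *Slc25a44*) and 29 were not called. Called members were 21.6% of those tested, against 18.5% of all tested genes (8.57% higher and 9.93% lower), a share near the background. The median log2 fold change was 0.04 over the members and 0.00 over all genes. By adjusted p alone 15 members passed, 9 higher and 6 lower, which is 40.5% against 30.5% of all genes. The libraries of the groups did not overlap for 13 tested members (35.1%), against 30.2% of all tested genes. With culture as a block, 6 members were called higher and 4 lower, where 20.9% of all genes were called. Fold changes of *Slc25a38* and *Slc25a44* lay just above the threshold, and those of *Slc25a33*, *Slc25a53* and *Slc25a32* just below it. With library totals as the only scaling, 3 members were higher and 4 lower, and with upper quartile scaling 4 were higher and 4 lower. The calls over all tested genes moved too. They were 1236 higher and 1432 lower in the main fit, 952 and 1752 with library totals, and 1034 and 1679 with upper quartile scaling.

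**Figure D2:**
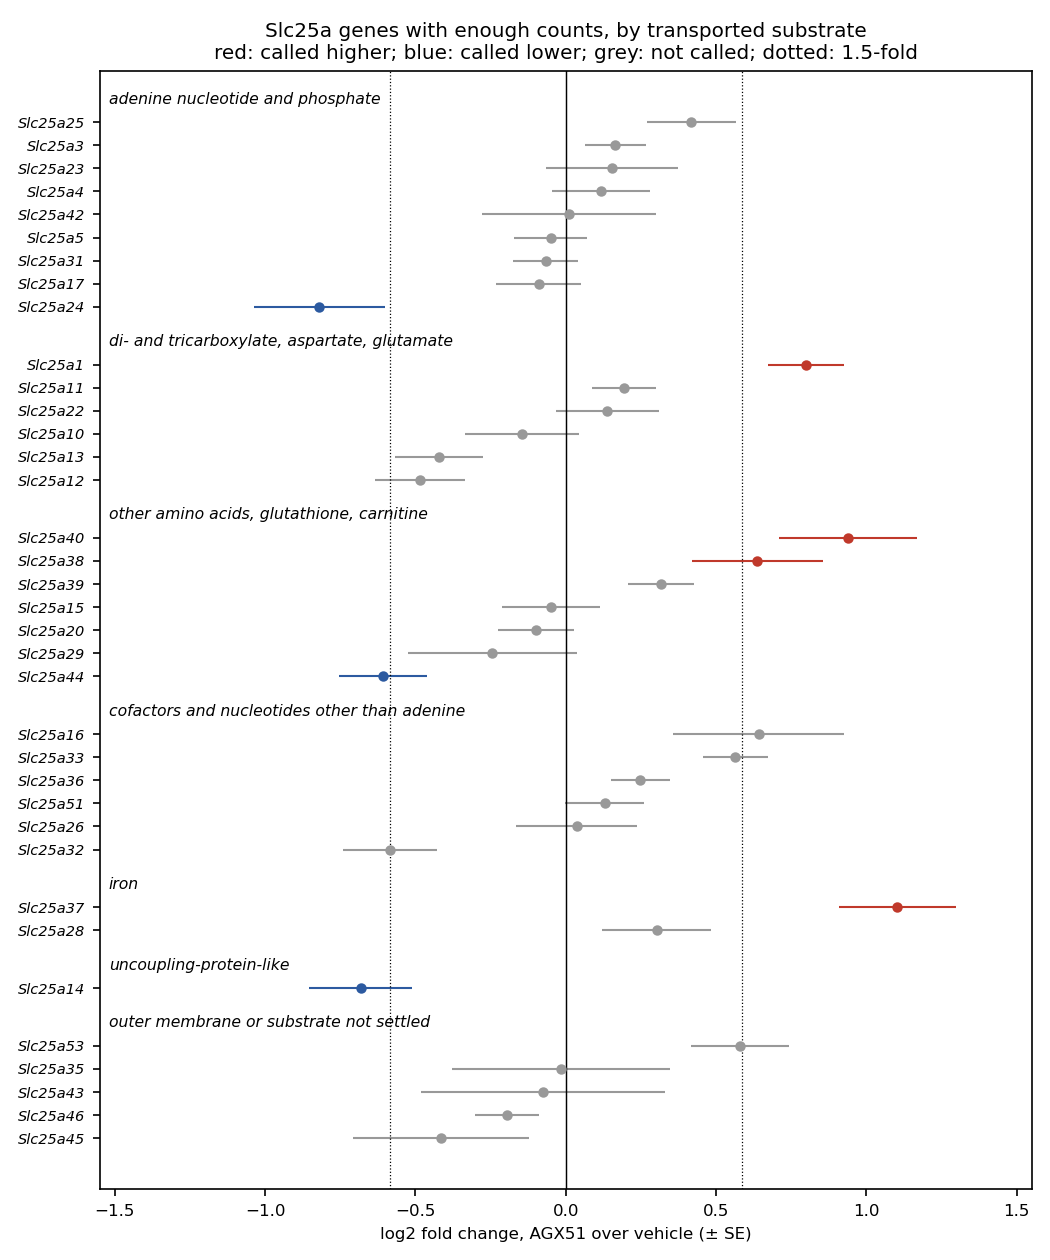
Log2 fold change of AGX51 over vehicle with its standard error for tested Slc25a genes, grouped by the substrates they carry. Dotted lines mark a fold change of 1.5, red points genes called higher and blue points the 3 called lower. The ADP/ATP carriers Slc25a4, Slc25a5 and Slc25a31 lie close to 0, and Slc25a37 is farthest to the right at 1.10.

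The largest rise in the family was in *Slc25a37*, which encodes mitoferrin 1, the importer of iron into mitochondria for heme and iron-sulfur cluster synthesis. The gene lies on chromosome 14 from 69241848 to 69285112 (GRCm38). It was at 7.66, 6.84, 7.73 and 6.34 CPM in vehicle libraries of cultures 1 to 4 and at 11.4, 12.8, 17.0 and 19.8 CPM in the AGX51 libraries. The groups did not overlap, and culture 4 had both the lowest vehicle and the highest AGX51 value. The log2 fold change was 1.10 (standard error 0.19, adjusted p = 0.00108 from edgeR), or 0.94 with fibroblast marker level as a covariate. Its paralog *Slc25a28*, or mitoferrin 2, averaged 10.7 ± 1.83 CPM with vehicle and 13.1 ± 2.46 CPM with AGX51 (SD, n = 4) and was not called (0.30 on the log2 scale, adjusted p = 0.225 from edgeR). *Slc25a37* shares 473 exon bases with genes on the opposite strand, and the sources used here do not give the strand setting of the counting. Such overlap is present for 12 of the 41 rows, among them *Slc25a35* (1151 bases), *Slc25a46* (383), *Slc25a25* (379) and *Slc25a33* (281).

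Of the glutathione carriers, the less abundant was called higher. *Slc25a40* was at 2.96, 3.48, 3.76 and 3.32 CPM in vehicle and at 4.68, 5.75, 6.89 and 8.41 CPM in AGX51 libraries. Each AGX51 library thus exceeded all vehicle libraries. It lies on chromosome 5 from 8422850 to 8454797, and its log2 fold change was 0.94 (standard error 0.23, adjusted p = 0.00821 from edgeR). This rested on 26 to 66 counts per library. The change was 0.76 (adjusted p = 0.0451 from edgeR) without both libraries of culture 4. With fibroblast marker level as a covariate it was 0.73 (adjusted p = 0.0297 from edgeR). *Slc25a39*, which imports glutathione into mitochondria and is the more abundant of the pair, averaged 175 ± 18.4 CPM with vehicle and 217 ± 22.8 CPM with AGX51 (SD, n = 4). Its adjusted p was 0.0436 from edgeR (0.0208 to 0.113 over the 8 fits that left out a single library), but the log2 fold change of 0.32 was below the threshold. With culture as a block *Slc25a39* was at 0.32 (adjusted p = 0.00512 from edgeR), also not called.

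*Slc25a38*, on chromosome 9 from 120110374 to 120124504, encodes the glycine carrier that feeds heme synthesis. It was at 4.49, 4.52, 5.33 and 6.13 CPM in vehicle and at 8.58, 7.08, 5.87 and 10.2 CPM in AGX51 libraries. AGX51 exceeded vehicle within each culture, but AGX51 replicate 3 fell below vehicle replicate 4. The log2 fold change was 0.64 (standard error 0.22, adjusted p = 0.0403 from edgeR). The call was lost in 5 of 8 fits that left out a single library (vehicle replicates 1, 2 or 3 or AGX51 replicates 1 or 4), with an adjusted p of 0.0247 to 0.123 from edgeR over these 8 fits. It was also lost in 5 of 11 other alternatives, which were upper quartile scaling, library totals, culture 4 left out, equal depth and fibroblast marker level as a covariate (0.47, adjusted p = 0.111).

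*Slc25a1*, on chromosome 16 from 17925223 to 17928219, encodes the citrate carrier, which exports citrate for fatty acid and sterol synthesis. It was at 55.2, 65.4, 58.3 and 61.1 CPM in vehicle libraries and at 95.8, 111, 83.3 and 128 CPM in AGX51 libraries. The groups were well separated, with the lowest AGX51 value above the highest vehicle value. On the log2 scale the change was 0.80 (standard error 0.12, adjusted p = 0.000502 from edgeR), the smallest adjusted p of the family.

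Other carriers of di- and tricarboxylates and of glutamate were not called. The dicarboxylate carrier *Slc25a10* had a log2 fold change of -0.14, the oxoglutarate-malate carrier *Slc25a11* of 0.19 and the glutamate carrier *Slc25a22* of 0.14. The aspartate-glutamate carriers, which export aspartate from mitochondria, were both lower with AGX51 within each culture. *Slc25a12* was at 13.7, 15.3, 14.0 and 14.6 CPM in vehicle and at 10.6, 8.19, 10.6 and 11.5 CPM in AGX51 libraries. *Slc25a13* was at 31.9, 27.9, 30.0 and 27.8 CPM in vehicle and at 27.3, 17.7, 23.8 and 18.7 CPM in AGX51 libraries. Neither pair of groups overlapped. The log2 fold changes of -0.48 (standard error 0.15, adjusted p = 0.0265) and -0.42 (standard error 0.15, adjusted p = 0.0438 from edgeR) were short of the fold threshold. Over the 8 fits that left out a single library, the adjusted p from edgeR was 0.0219 to 0.0713 for *Slc25a12* and 0.0175 to 0.122 for *Slc25a13*. With culture as a block, edgeR gave -0.48 (adjusted p = 0.0104) for *Slc25a12* and -0.44 (adjusted p = 0.0039) for *Slc25a13*, neither called. With fibroblast marker level as a covariate *Slc25a13* was at -0.32 (adjusted p = 0.0984 from edgeR).

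Carriers of cofactors and of nucleotides other than adenine included members on either side of 0. The pyrimidine nucleotide carrier *Slc25a33* was at 31.5, 25.9, 27.5 and 27.6 CPM in vehicle and at 43.4, 42.7, 41.5 and 38.9 CPM in AGX51 libraries. These groups were separate, and the change of 0.56 on the log2 scale (standard error 0.11, adjusted p = 0.00184 from edgeR) missed the fold threshold. With fibroblast marker level as a covariate it was 0.61 and the gene was called. Its paralog *Slc25a36* averaged 52.4 ± 2.60 CPM with vehicle and 62.2 ± 6.20 CPM with AGX51 (SD, n = 4), a log2 difference of 0.25 with an adjusted p of 0.0735 from edgeR. With culture as a block *Slc25a36* was at 0.24 (adjusted p = 0.0165 from edgeR), below the fold threshold. *Slc25a16* averaged 2.23 ± 0.42 CPM and 3.49 ± 0.99 CPM (SD, n = 4), a log2 difference of 0.64 with an adjusted p of 0.103 from edgeR. The NAD carrier *Slc25a51* and the S-adenosylmethionine carrier *Slc25a26* had log2 fold changes of 0.13 and 0.04, and the sign of the latter turned with library totals or upper quartile scaling.

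*Slc25a32*, a carrier linked to mitochondrial folate and FAD supply, had lower levels with AGX51. It was at 14.9, 14.0, 14.0 and 16.6 CPM in vehicle and at 11.2, 11.1, 9.39 and 8.29 CPM in AGX51 libraries, with no overlap. On the log2 scale the change was -0.58 (standard error 0.16, adjusted p = 0.0127 from edgeR), just inside 1.5-fold. The gene was called lower with culture as a block (-0.59, adjusted p = 0.00306), by limma-voom (-0.60, adjusted p = 0.0116), and in edgeR with upper quartile scaling (-0.64) or library totals (-0.65). It was not called by DESeq2 (-0.58), and without both libraries of culture 4 it was at -0.44 (adjusted p = 0.0603 from edgeR).

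**Figure D3:**
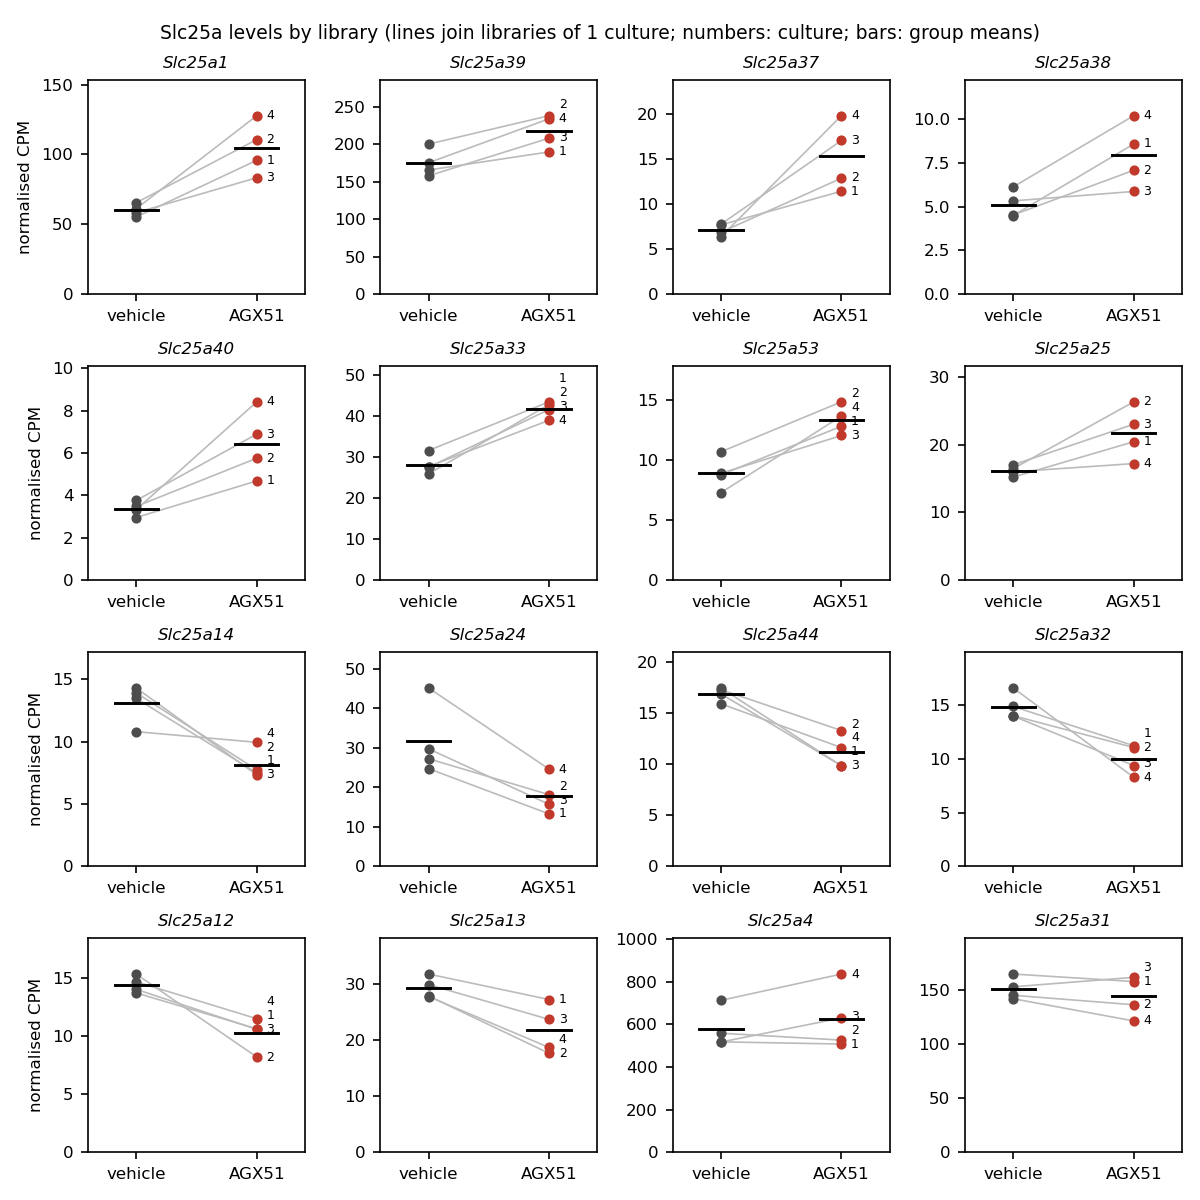
Normalised CPM of 16 Slc25a genes in each library, on linear axes from 0. Grey points are vehicle and red points AGX51 libraries, grey lines join libraries of the same culture, numbers name the culture and black bars are group means. Slc25a1, Slc25a37 and Slc25a40 separate upward, Slc25a14, Slc25a24, Slc25a44 and Slc25a32 separate downward, and Slc25a4 and Slc25a31 overlap.

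The deepest fall was in *Slc25a24*, on chromosome 3 from 109123149 to 109168457, a calcium-regulated carrier that exchanges ATP-Mg for phosphate. It was at 24.7, 27.2, 29.8 and 45.2 CPM in vehicle and at 13.3, 18.1, 15.7 and 24.6 CPM in AGX51 libraries. Vehicle replicate 4 stood above the other vehicle libraries, as did AGX51 replicate 4 above the other AGX51 libraries, and these were the libraries with the highest fibroblast marker levels. AGX51 replicate 4 lay just under vehicle replicate 1, so the groups did not overlap. The log2 fold change was -0.82 (standard error 0.22, adjusted p = 0.0124 from edgeR). It was -0.81 without both libraries of culture 4 and -1.15 with fibroblast marker level as a covariate. Without vehicle replicate 4 alone it was -0.60 (adjusted p = 0.0347 from edgeR), close to the fold threshold. Over the 8 fits that left out a single library, the adjusted p was 0.00251 to 0.0413 from edgeR.

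Its relatives *Slc25a25* and *Slc25a23* were not called. *Slc25a25* was at 15.2, 16.5, 17.0 and 16.0 CPM in vehicle and at 20.4, 26.3, 23.0 and 17.2 CPM in AGX51 libraries, and its change of 0.42 on the log2 scale (standard error 0.15, adjusted p = 0.0461 from edgeR) was short of the fold threshold. The lowest AGX51 value, in culture 4, lay just above the highest vehicle value, in culture 3, so the groups did not overlap. Over the 8 fits that left out a single library, the adjusted p of *Slc25a25* was 0.0117 to 0.11 from edgeR. The fit with culture as a block gave 0.41 (adjusted p = 0.0124 from edgeR), also not called. For *Slc25a23* the change was 0.15 on the log2 scale (adjusted p = 0.635 from edgeR).

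*Slc25a44*, the branched-chain amino acid carrier on chromosome 3 from 88410498 to 88425139, also fell. It was at 16.9, 17.3, 17.4 and 15.9 CPM in vehicle and at 9.83, 13.3, 9.83 and 11.6 CPM in AGX51 libraries, with no overlap. AGX51 minus vehicle was -0.61 on the log2 scale (standard error 0.15, adjusted p = 0.00727 from edgeR). In 4 of 8 fits without a single library (vehicle replicates 2 or 3 or AGX51 replicates 1 or 3) the fold change was below the threshold, while the adjusted p over the 8 fits was 0.00625 to 0.0295 from edgeR. The ornithine carrier *Slc25a15*, the carnitine-acylcarnitine carrier *Slc25a20* and the basic amino acid carrier *Slc25a29* were not called, with log2 fold changes of -0.05, -0.10 and -0.24.

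*Slc25a14*, which encodes a protein related to the uncoupling proteins, lies on chromosome X from 48623413 to 48662294. It was at 13.5, 13.9, 14.3 and 10.8 CPM in vehicle and at 7.49, 7.74, 7.33 and 9.94 CPM in AGX51 libraries. Culture 4 differed from the others, with the lowest vehicle and the highest AGX51 value, so that its libraries nearly met. The log2 fold change was -0.68 (standard error 0.17, adjusted p = 0.00908 from edgeR) and -0.89 without both libraries of culture 4.

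The carriers at the center of oxidative phosphorylation were not called. *Slc25a4* averaged 577 ± 92.7 CPM with vehicle and 625 ± 151 CPM with AGX51 (SD, n = 4). Culture 4 had the highest level in both groups, at 713 and 836 CPM, as it did for fibroblast markers, and with their mean as a covariate the log2 fold change turned from 0.12 to -0.13. *Slc25a5* averaged 491 ± 50.2 CPM with vehicle and 474 ± 61.7 CPM with AGX51, and *Slc25a31* 151 ± 10.1 and 144 ± 18.9 CPM (SD, n = 4). The groups overlapped for both genes, with an adjusted p of 0.785 and 0.673 from edgeR. *Slc25a3* averaged 418 ± 33.1 CPM with vehicle and 469 ± 30.0 CPM with AGX51 (SD, n = 4; adjusted p = 0.24 from edgeR). The peroxisomal carrier *Slc25a17* and the coenzyme A carrier *Slc25a42* had log2 fold changes of -0.09 and 0.01, and the sign of the latter turned with library totals or upper quartile scaling.

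Of 5 tested members that act in the outer membrane or have no settled substrate, none was called by edgeR, and 1 had an unadjusted p under 0.05. DESeq2 and limma-voom each called this member, *Slc25a53*, higher. It was at 8.76, 10.7, 8.88 and 7.27 CPM in vehicle and at 12.8, 14.8, 12.0 and 13.6 CPM in AGX51 libraries, with no overlap. Its change of 0.58 on the log2 scale (standard error 0.16, adjusted p = 0.0176 from edgeR) was just under the threshold, and with culture as a block it was called (0.59, adjusted p = 0.00324), as it was with fibroblast marker level as a covariate (0.63). It missed the threshold on adjusted p in edgeR with library totals (0.50, adjusted p = 0.0547), without both libraries of culture 4 (0.48, adjusted p = 0.0625) and at equal depth (0.44, adjusted p = 0.0681). *Slc25a46* averaged 51.4 ± 2.91 CPM with vehicle and 44.8 ± 5.04 CPM with AGX51 (SD, n = 4), lower in 4 of 4 cultures, with an adjusted p of 0.176 from edgeR. *Slc25a35*, *Slc25a43* and *Slc25a45* had group means below 4 CPM, with log2 fold changes of -0.01, -0.07 and -0.41.

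Paralogs could be compared within each library, where scaling cancels. The count ratio is given for 6 pairs chosen after these values were seen, as a description with no test. The *Slc25a25* to *Slc25a24* ratio was 0.615, 0.604, 0.572 and 0.354 in vehicle and 1.54, 1.45, 1.47 and 0.699 in AGX51 libraries. It was higher with AGX51 in 4 of 4 cultures and the groups did not overlap, with a log2 difference of 1.23 (SD over libraries 0.38 with vehicle and 0.54 with AGX51). Culture 4 had the lowest ratio in both groups. Since *Slc25a24* was lower and *Slc25a25* higher in libraries that did not overlap, separation of this ratio follows from the values above. The *Slc25a40* to *Slc25a39* ratio differed by 0.58 on the log2 scale and that of *Slc25a33* to *Slc25a36* by 0.32, each higher with AGX51 in 4 of 4 cultures. The *Slc25a37* to *Slc25a28* ratio was 0.597 to 0.735 in vehicle and 1.23 to 1.46 in cultures 2 to 4 with AGX51, but 0.702 in culture 1, within the vehicle range. Within cultures it was higher with AGX51 in 4 of 4. For *Slc25a12* to *Slc25a13* the log2 difference was -0.06 with SDs of 0.16 and 0.28, and the ratio was higher with AGX51 in 1 of 4 cultures. For *Slc25a4* to *Slc25a5* the log2 difference was 0.16 with SDs of 0.19 and 0.23, and the ratio was higher in 4 of 4 cultures. The groups overlapped for both of these pairs.

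**Figure D4:**
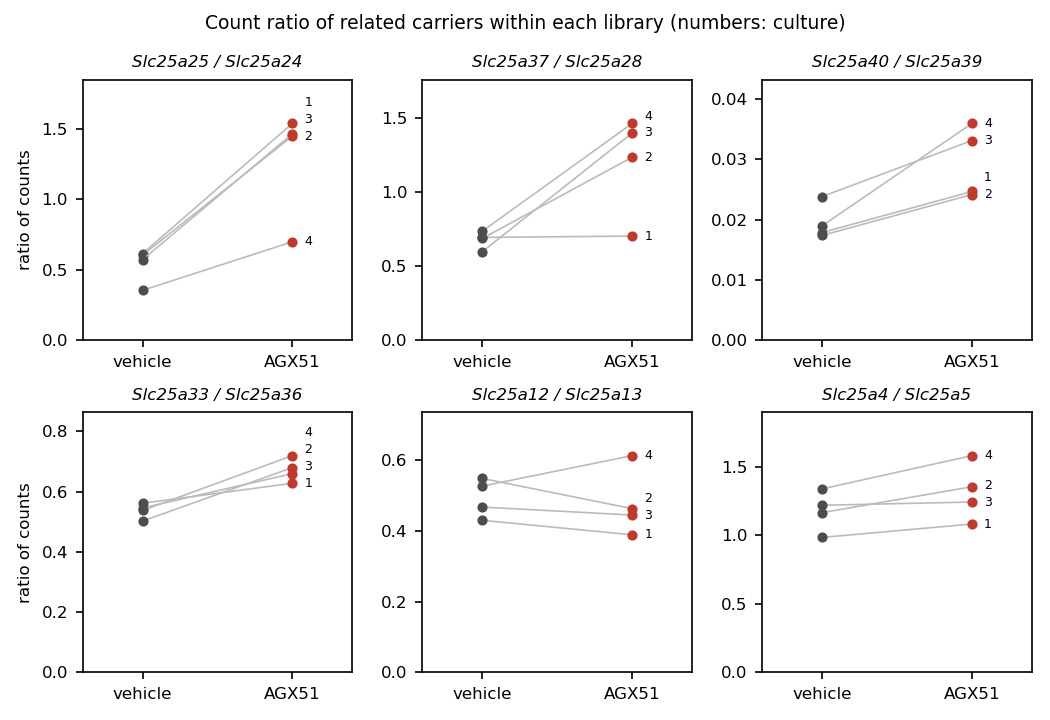
Ratio of the counts of paired Slc25a genes within each library, on linear axes from 0. Grey points are vehicle and red points AGX51 libraries, lines join libraries of the same culture and numbers name the culture. The Slc25a25 to Slc25a24 ratio lies at 0.354 to 0.615 with vehicle and at 0.699 to 1.54 with AGX51, whereas the groups overlap for Slc25a12 to Slc25a13 and for Slc25a4 to Slc25a5.

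Genes that work beside the carriers were examined as a list of 38, of which 36 were listed and tested. The list covers the import machinery of carriers, pores of the outer membrane, the pyruvate and calcium transporters, sideroflexins and enzymes of the malate-aspartate and carnitine systems. Of these, 4 were called higher and 0 lower by each of edgeR, DESeq2 and limma-voom. The share called by edgeR was 11.1%, against 18.5% of all genes. At an unadjusted p under 0.05, 12 were higher and 4 lower. Of the 14428 tested genes, 3012 were higher and 3042 lower at that level. *Got1*, the cytosolic aspartate aminotransferase that acts on aspartate exported by *Slc25a12* and *Slc25a13*, was at 20.5, 23.0, 22.1 and 24.8 CPM in vehicle and at 47.3, 46.7, 52.6 and 87.2 CPM in AGX51 libraries. Its log2 fold change was 1.38 (standard error 0.18, adjusted p = 0.000182 from edgeR), and the groups did not overlap. Genes named next that were not called were chosen after their values were seen. The mitochondrial counterpart *Got2* had a log2 difference of 0.46 (adjusted p = 0.0437 from edgeR) and the malate dehydrogenases *Mdh1* and *Mdh2* -0.24 and 0.18, none of these called. *Mcu*, the pore of the mitochondrial calcium uniporter, and *Vdac2*, an outer membrane channel, had log2 fold changes of 0.84 and 0.61 (adjusted p = 0.0159 and 0.000579 from edgeR). With fibroblast marker level as a covariate, *Mcu* (0.59) and *Vdac2* (0.53) were no longer called and *Timm10b*, a small chaperone of carrier import, was called lower (-0.60). Without the covariate, *Timm10b* and *Timm8b* had log2 fold changes of -0.52 and -0.43, and *Timm10*, *Timm9* and *Agk*, of the same import route, 0.47, 0.36 and 0.56.

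Upstream sequences were searched because E-proteins, the partners of the ID proteins, bind E-box motifs. RefSeq start sites on GRCm38.p6 were available for 29 of the 37 tested members, and the 250 bases before each start were read on both strands. CAGCTG was found in 2 members (6.90%, against 14.7% of 27025 genes with such sequences) and CAGGTG in 4 (13.8% against 19.4%). CACGTG, the form bound by MYC and CLOCK proteins, was found in 7 (24.1% against 6.86%). TGATGNAA, the core of the element bound by the stress factor ATF4 with its partners, was found in 0 of 29 members and in 3.91% of all genes, and GCATGCGC, a core of the NRF1 site, in 1 member (3.45% against 2.56%). The 6-letter forms exclude each other at a given position, and a match is a description of letters. The shares over 27025 genes include genes with too few counts for testing here, so they are not matched to the tested members. Enrichment was not tested. No window was available for *Slc25a37* or *Slc25a44*. The matches of 5 called members are shown 5′ to 3′ on the gene's strand, with the motif or its reverse complement in capitals, to set members that rose beside members that fell.
Slc25a1 (called higher, chr16:17928433-17928469, minus strand): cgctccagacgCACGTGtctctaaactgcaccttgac
Slc25a38 (called higher, chr9:120110276-120110321, plus strand): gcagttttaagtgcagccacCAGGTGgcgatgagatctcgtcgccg
Slc25a40 (called higher, chr5:8422774-8422819, plus strand): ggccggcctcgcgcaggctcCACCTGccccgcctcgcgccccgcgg
Slc25a24 (called lower, chr3:109123003-109123048, plus strand): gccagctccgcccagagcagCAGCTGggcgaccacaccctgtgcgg
Slc25a14 (called lower, chrX:48623374-48623419, plus strand): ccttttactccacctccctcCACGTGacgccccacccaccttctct
CACGTG thus stood before a start of *Slc25a1*, which rose, and before a start of *Slc25a14*, which fell.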

How the data were processed

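The 8 libraries were poly(A)-primed, multiplexed RNA-seq libraries. Raw counts per gene were made by the authors with RNAsik. Tools in the submitters' processing notes were STAR, featureCounts, Salmon, limma and edgeR, and the build was GRCm38. Their versions, the strand setting and the rule for the 17167 listed genes are not given in the sources used here. The deposited CPM columns are the authors' counts scaled to library totals and were not used, since CPM was recomputed with TMM factors. Columns of the authors' own comparison (fold changes, average expression and significance) were not used. Unmapped per-sample columns numbered 0.

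R 4.3.3 and edgeR 4.0.16 were applied to the counts with filterByExpr (minimum count 10, total 15), TMM and the quasi-likelihood test, adjusted by Benjamini-Hochberg over 14428 genes, with 2739 not tested. On counts simulated for the comparison of AGX51 with vehicle, 82.7% of genes changed 2-fold were called, and 4 of 13933 unchanged genes. The simulation held no culture effect, unlike the data, and the 2-fold share does not describe changes near the 1.5-fold threshold. Each alternative changed a single choice: the scaling (RLE, upper quartile, totals), the count filter, the tool (DESeq2 1.42.0 or voom in limma 3.58.1), culture as a block, no fold threshold, a library or culture 4 left out, equal depth (4303318 counts), or the mean of 22 fibroblast markers as a covariate. The labels give libraries of a culture the same letter, and after removal of group means such pairs correlated at 0.113 to 0.444 and other pairs at -0.287 to 0.0951. No replicates were identical, and all exceeded sampling noise (6.25 to 19.9 for chi-square over its degrees of freedom). Coordinates and exon lengths are from GENCODE M21 (41 of 41 IDs matched), and upstream sequences from RefSeq (GRCm38.p6).

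The members, role groups and lists were chosen with earlier results of these data known. By the rule for named genes, called members have full statistics, members with an unadjusted p under 0.05 have group values and fold changes, the other members fold changes or group means, and called related genes are named, except that 1 member and 1 related gene are not reported here and are left out of the plots. Library values of some uncalled members and the 6 pairs of paralogs were added after the values were seen. Names on the role lists outside the listed genes were not analysed here.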

Additional observations from a re-analysis of the deposited data

Results flagged for a closer look

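In 2 of 74 groups of 4 libraries examined for the tested members, a single library stood far from the other 3 (gap over range above 0.829). Chance gives about 1 in 20 such groups. *Slc25a14* was at 9.94 CPM in AGX51 replicate 4, against 7.33 to 7.74 CPM in the other AGX51 libraries. *Slc25a11* was at 94.1 CPM in the same library, against 71.3 to 74.4 CPM.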

How the results depend on the processing

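Over the alternatives, *Slc25a1*, *Slc25a37*, *Slc25a40*, *Slc25a14* and *Slc25a24* were called in the same direction in each of 19 fits, while *Slc25a38* and *Slc25a44* lost the call in some. Members called higher numbered 3 with library totals only, 3 at equal depth and 9 with no fold threshold (6 lower), and ranged from 5 to 6 when a library was left out (2 to 4 lower). Related genes called higher numbered 9 with no fold threshold (2 lower) and 2 with the fibroblast covariate (1 lower), and 1 was lower with library totals only. With culture as a replicate block, 6 members were higher and 4 lower, and of the members it changed the call of *Slc25a53* and *Slc25a32*.

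Signs turned only for uncalled members with log2 fold changes near 0. With culture 4 left out these were *Slc25a51* (-0.00058), *Slc25a42* (-0.14) and *Slc25a43* (0.0065). At equal depth they were *Slc25a10* (0.087), *Slc25a42* (-0.0041), *Slc25a26* (-0.050), *Slc25a15* (0.094) and *Slc25a43* (0.21). With the fibroblast covariate they were *Slc25a4* (-0.13), *Slc25a31* (0.027) and *Slc25a15* (0.011). With library totals they were *Slc25a42* (-0.081) and *Slc25a26* (-0.045), with upper quartile scaling *Slc25a42* (-0.043) and *Slc25a26* (-0.018), and with no count filter *Slc25a35* (0.0017). With single libraries left out, the ranges crossing 0 were -0.14 to 0.045 (*Slc25a15*), -0.0066 to 0.24 (*Slc25a22*), -0.075 to 0.14 (*Slc25a26*), -0.12 to 0.011 (*Slc25a31*), -0.34 to 0.18 (*Slc25a35*), -0.053 to 0.24 (*Slc25a4*), -0.12 to 0.24 (*Slc25a42*), -0.36 to 0.29 (*Slc25a43*) and -0.10 to 0.049 (*Slc25a5*). The cause was not tested.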
